A study of Papio hamadryas with 11 samples.

Results

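The insulin-like growth factor (IGF) axis was followed in fetal baboon liver near term, in pregnancies of obese and of control mothers. The members are 10 genes chosen by symbol: the ligands IGF1 and IGF2, the receptors IGF1R, IGF2R and GHR, the binding proteins IGFBP1, IGFBP2, IGFBP3 and IGFBP4, and IGFALS. Their 14 probes are all those that the array's annotation gives to these symbols, out of 48803 probes and 18852 named genes. Of the 14 probes, 10 were detected (detection p under 0.05) on 5 or more arrays and were tested, and these stand for 8 of the 10 genes. All 11 livers came from Papio hamadryas fetuses at 165 days, or 0.9 of gestation, with 6 control fetuses (CON1 to CON6) and 5 fetuses of obese mothers (MO1 to MO5). The labels give condition, fetal sex, age and tissue, and say nothing of how obesity came about or of diet. Females were CON1 to CON3 and MO1 to MO3, and the other 5 fetuses were male. Total RNA of each liver was amplified to biotin-labelled cRNA and read on 1 human Illumina expression array.

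IGF1 and IGF2 are peptide growth factors that signal through the tyrosine kinase receptor IGF1R, and both drive fetal growth before birth. IGF2R, the mannose 6-phosphate receptor, carries IGF2 and lysosomal enzymes into the lysosome and so lowers extracellular IGF2. The binding proteins hold IGFs in the circulation and control their access to receptors. The liver is a main source of circulating IGFs and of several binding proteins, and after birth growth hormone acting on GHR drives hepatic IGF1 and IGFALS.

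Values are log2 intensities after background correction and quantile normalization. The array was built for human transcripts and each probe binds baboon RNA with its own strength, so no probe's level is set against another's. A probe that was not detected says only that its signal did not stand above background on these arrays. Between 10131 and 13065 probes were detected per array. The array names show 2 slides. The first 4 controls were on slide 1, and the 5 maternal obese arrays shared slide 2 with CON5 and CON6, so a comparison that takes slide into account rests on CON5 and CON6, which are both male. The median correlation of 2 arrays was 0.967 on the same slide and 0.951 across slides. Of 8 hepatocyte markers, 7 were detected on all 11 arrays, with ALB at 14.40 to 14.83 and TTR at 14.37 to 14.76. Markers of Kupffer cells (8 of 8), sinusoidal endothelium (7 of 8), stellate cells and fibroblasts (6 of 8) and erythroid cells (5 of 8) were measured too, so the livers were mixtures of cells. In such bulk samples, fewer cells of a type and less RNA per cell cannot be told apart.

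The comparison of maternal obese with control livers asks how maternal obesity goes with fetal hepatic expression. IGF2R stood higher in maternal obese livers and IGF1 stood lower. IGFBP1 and IGFBP2 varied widely within both groups, and IGFBP3 and IGFBP4 had similar means in the 2 groups. None of these differences passed the threshold over all probes. In limma's test with Benjamini-Hochberg adjustment, 0 of the 10 member probes and 0 of all 11475 tested probes (0.00%) had an adjusted p under 0.05, and the smallest adjusted p was 0.234. An unadjusted p under 0.05 was found for 2 of the 10 member probes, IGF2R and IGF1, and for 1464 of all tested probes (12.8%). The difference was above 0 for 7 of the 10 member probes and for 57.1% of all tested probes, whose median was 0.043.

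**Figure D1:**
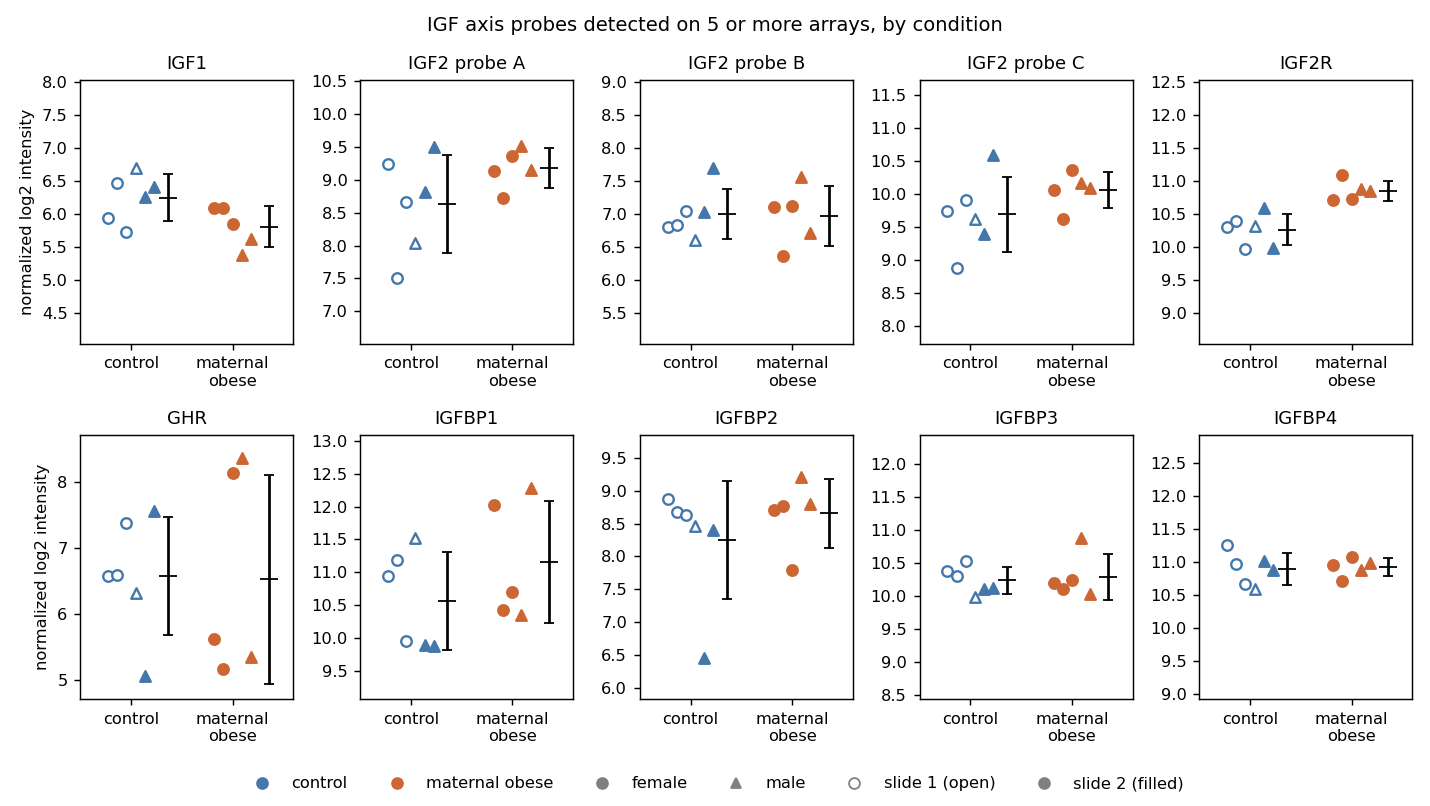
Normalized log2 intensity of the 10 tested probes in each of the 11 livers, by condition. Circles are females, triangles males, open symbols slide 1 and filled symbols slide 2, and the bar beside each group is the mean with its SD (n = 6 control, n = 5 maternal obese). Every panel spans the same number of log2 units. The 5 maternal obese livers lie above all 6 controls for IGF2R, while the groups overlap for the other 9 probes.

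Of the ligands, IGF1 had 2 probes, and 1 of them (ILMN_1709613) was detected, in all 6 control livers and in 4 of the 5 from obese mothers. In the control livers it read 5.94 in CON1, 6.46 in CON2, 5.72 in CON3, 6.69 in CON4, 6.25 in CON5 and 6.41 in CON6. The maternal obese livers read 6.09 in MO1, 6.09 in MO2, 5.85 in MO3, 5.37 in MO4 and 5.62 in MO5. CON4 was highest and MO4, the array where the probe was not detected, was lowest, and the groups overlapped through the females CON1 and CON3. Control livers averaged 6.24 ± 0.36 (SD, n = 6) and maternal obese livers 5.80 ± 0.31 (SD, n = 5). The difference was -0.44 (SE 0.19, 95% interval -0.85 to -0.028, limma adjusted p = 0.375). All readings were dim, with intensities of 95.3 to 170.0 before correction, so background correction bears on the size of this difference. Without background correction it was -0.25. With slide as a covariate it was -0.52 (SE 0.27). The second IGF1 probe (ILMN_2056087) was detected on 0 arrays, with intensities of 64.7 to 91.4.

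IGF2 had 3 probes, all detected on all 11 arrays, called A (ILMN_1699867), B (ILMN_2298035) and C (ILMN_2413956) here. Probe A read 9.24, 7.51, 8.67, 8.04, 8.82 and 9.49 in CON1 to CON6 and 9.13, 8.72, 9.36, 9.52 and 9.14 in MO1 to MO5. CON2 and CON4 of slide 1 were low, CON6 was as high as any maternal obese liver but MO4, and the groups overlapped. Its means were 8.63 ± 0.74 (SD, n = 6) and 9.17 ± 0.30 (SD, n = 5), a difference of 0.55 (SE 0.31, limma adjusted p = 0.438). Probe C read 9.74, 8.88, 9.92, 9.63, 9.40 and 10.59 in the controls and 10.06, 9.62, 10.37, 10.18 and 10.10 in the maternal obese livers. It was lowest in CON2, as probe A was, and highest in CON6, and its difference was 0.37 (SE 0.25, limma adjusted p = 0.500). Without CON2 the difference was 0.325 (SE 0.25) for probe A and 0.21 (SE 0.22) for probe C. Probe B ran from 6.62 to 7.71 in controls and from 6.37 to 7.56 in maternal obese livers, with a difference of -0.028 (SE 0.23, 95% interval -0.52 to 0.46). With slide as a covariate, probe A went from 0.55 to 0.022 (SE 0.38), probe C from 0.37 to 0.069 (SE 0.33) and probe B to -0.39 (SE 0.28). With condition as a covariate, the slide difference was 0.79 for probe A (SE 0.40, limma adjusted p = 0.225), with slide 1 the lower. For probe C it was 0.455 (SE 0.34, limma adjusted p = 0.430), in the same direction. The slide-adjusted condition differences rest on CON5 and CON6, which read 9.40 and 10.59 for probe C. These adjusted values cannot show whether the higher maternal obese means of probes A and C went with slide. Beyond CON5 and CON6 slide and condition cannot be told apart.

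The 3 IGF2 probes ranked the livers of slide 2 alike in part. Over its 7 arrays probes A and C correlated at r = 0.902 (exact permutation p = 0.00873, adjusted p = 0.0262; rho = 0.857, p = 0.0238) and A and B at r = 0.839 (exact permutation p = 0.0200, adjusted p = 0.0301; rho = 0.857, p = 0.0238). Probes B and C gave r = 0.649 (exact permutation p = 0.107, adjusted p = 0.107; rho = 0.786, p = 0.0480). Without the 2 arrays farthest from the median of the probe named first, these were 0.992, 0.632 and 0.220, over 5 arrays. Leaving out the most extreme readings narrows the range, so this does not show on which livers the relations with probe B rested.

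Another 2 probes are annotated to INS-IGF2, a readthrough transcript of the insulin and IGF2 genes that shares sequence with IGF2, and are not members. One of them (ILMN_2250521) was detected on 0 of the 4 arrays of slide 1 and on all 7 of slide 2. It read 4.94 to 5.25 on slide 1, 6.01 and 6.02 in CON5 and CON6, and 5.94 to 7.02 in the maternal obese livers. With condition as a covariate slide 2 stood 0.93 above slide 1 (SE 0.24). The probe was tested only because it was detected on slide 2, so this gap and the lack of overlap between slides restate its detection. The maternal obese difference of this probe, 1.03 (SE 0.24, limma adjusted p = 0.276), likewise compares detected arrays largely with arrays at background. The other INS-IGF2 probe (ILMN_2328463) was detected on all arrays, at 6.23 to 7.52 in controls and 6.41 to 7.37 in maternal obese livers, with a difference of -0.021 (SE 0.23).

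**Figure D2:**
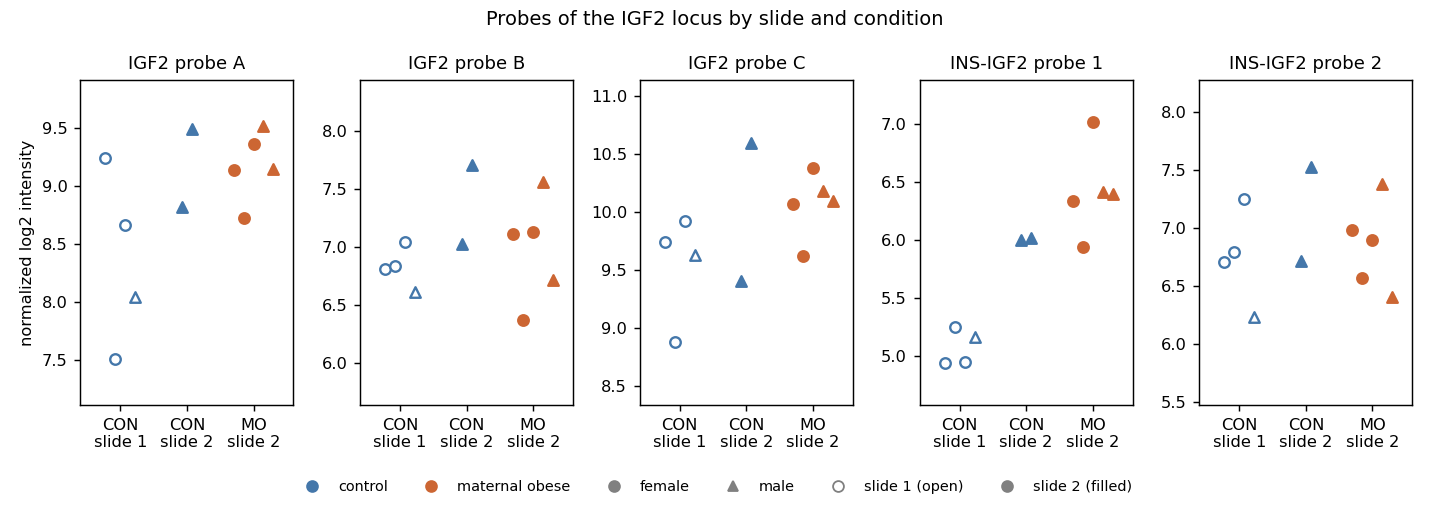
Normalized log2 intensity of the 3 IGF2 probes and the 2 INS-IGF2 probes in 4 control arrays of slide 1, 2 control arrays of slide 2 and 5 maternal obese arrays of slide 2. Symbols are as in the plot of values by condition. INS-IGF2 probe 1 reads at most 5.25 on slide 1 and at least 5.94 on slide 2, while the other probes overlap between slides.

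Among the receptors, IGF2R was the member with the smallest p, and only 0.218% of the tested probes had a smaller one. It read 10.31 in CON1, 10.40 in CON2, 9.98 in CON3, 10.32 in CON4, 10.60 in CON5 and 9.996 in CON6. The maternal obese livers read 10.72 in MO1, 11.10 in MO2, 10.73 in MO3, 10.89 in MO4 and 10.85 in MO5. The groups did not overlap: the highest control, CON5, lay just below the lowest maternal obese liver, MO1. Groups without overlap were found for 1 of the 10 member probes and for 162 of all tested probes (1.41%), and maternal obese livers were the higher group for 1.18% of all tested probes. The means were 10.27 ± 0.24 (SD, n = 6) and 10.86 ± 0.16 (SD, n = 5), a difference of 0.59 (SE 0.14, 95% interval 0.30 to 0.88), or 1.51-fold, with a limma adjusted p = 0.276.

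The IGF2R difference was of like size within slide 2. The 5 maternal obese arrays minus CON5 and CON6 gave 0.56 (SE 0.19, limma adjusted p = 0.535), slide and sex as covariates 0.59 (SE 0.22, limma adjusted p = 0.983) and the 4 males of slide 2 alone 0.57 (SE 0.25, limma adjusted p = 0.815). Controls of slide 1 read 10.25 ± 0.18 (SD, n = 4), and slide 2 stood 0.044 (SE 0.19) from slide 1 with condition as a covariate. Median scaling in place of quantile normalization lowered the median of all probes from 0.043 to -0.14, and IGF2R then stood at 0.36, or 0.49 above that median. Leaving out single arrays gave 0.53 to 0.66.

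Markers of some cell types leaned to 1 side between conditions, without passing adjustment, or stood out in single arrays. All 8 Kupffer cell and macrophage markers had a difference below 0, with a median of -0.32, while 57.1% of all tested probes lay above 0. The mean score of these markers ran from -0.26 to 0.56 in controls and from -0.63 to 0.20 in maternal obese livers. Of these 8, CD163 and LYZ had an unadjusted limma p under 0.05, at -0.60 (SE 0.27) and -0.59 (SE 0.27), and 0 passed the adjusted threshold. Over all tested probes 12.8% had such an unadjusted p. CD163 and LYZ were named after their values were seen. MO2, which read highest for IGF2R, had a stellate cell and fibroblast score of 1.97, against -0.92 to 0.49 on the other 10 arrays. Without MO2 the IGF2R difference was 0.53 (SE 0.14, limma adjusted p = 0.412). Of the measured markers, 5 of 5 erythroid, 5 of 6 stellate cell and fibroblast, 5 of 7 sinusoidal endothelial and 3 of 7 hepatocyte ones lay above 0. The medians of these lists were 0.19, 0.34, 0.059 and -0.041. The part of any of these cell types in the IGF2R difference was not tested.

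GHR, the growth hormone receptor, was detected in 5 of the 6 control livers and 3 of the 5 from obese mothers. It read 6.57, 6.60, 7.38, 6.32, 5.05 and 7.56 in CON1 to CON6 and 5.61, 5.17, 8.14, 8.36 and 5.35 in MO1 to MO5. MO3 and MO4 were highest, and CON5, MO2 and MO5, where it was not detected, were lowest, so high and low livers occurred in both conditions, both sexes and on slide 2. The range of 3.31 on the log2 scale, or 9.92-fold, was the widest of the member probes, and 99.5% of all tested probes had a smaller SD within conditions. As 3 arrays lay at background, the range is limited from below. Group means were 6.58 ± 0.90 (SD, n = 6) and 6.53 ± 1.58 (SD, n = 5), and the difference of -0.054 had a 95% interval of -1.42 to 1.31, so sizeable changes in either direction were not detectable here. IGF1R, the receptor through which IGF1 and IGF2 signal growth, had 1 probe, detected on 0 arrays at intensities of 51.6 to 69.4.

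IGFBP1, the insulin-repressed and stress-responsive binding protein of liver, was detected on all arrays. It read 10.95, 11.19, 9.96, 11.52, 9.90 and 9.89 in CON1 to CON6 and 12.03, 10.43, 10.70, 10.35 and 12.28 in MO1 to MO5. MO5 and MO1 were highest, CON3, CON5 and CON6 lowest, and the groups overlapped. The means were 10.57 ± 0.74 (SD, n = 6) and 11.16 ± 0.92 (SD, n = 5), a difference of 0.59 (SE 0.42, 95% interval -0.33 to 1.503, limma adjusted p = 0.529). It was 0.31 without MO5 and 0.37 without MO1. Within slide 2 both controls lay below all 5 maternal obese livers, and the difference there was 1.26 (SE 0.53, limma adjusted p = 0.582). Such a lack of overlap on slide 2 was found for 3 of the 10 member probes, IGF2R and IGFBP1 higher and IGF1 lower in maternal obese livers, against 14.0% of all tested probes.

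IGFBP2, the main binding protein of fetal plasma, read 8.87, 8.68, 8.64, 8.46, 6.47 and 8.40 in CON1 to CON6 and 8.70, 8.76, 7.79, 9.21 and 8.80 in MO1 to MO5. CON5 stood far below every other array, MO3 was next, and the other 9 livers lay between 8.40 and 9.21. The difference of 0.40 (SE 0.39, limma adjusted p = 0.645) was 0.043 (SE 0.22) without CON5. Adjusted for slide it was 1.22 (SE 0.44, limma adjusted p = 0.579), a value that rests on CON5 as 1 of the 2 controls of slide 2.

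IGFBP3, the carrier of most circulating IGF in a complex with IGFALS after birth, had 1 detected probe of 2 (ILMN_2396875). It read 10.38, 10.30, 10.54, 9.99, 10.11 and 10.11 in CON1 to CON6 and 10.19, 10.10, 10.24, 10.88 and 10.02 in MO1 to MO5. MO4 was the highest and the other 10 livers spanned 9.99 to 10.54. The difference was 0.050 (SE 0.16, 95% interval -0.30 to 0.40). The second IGFBP3 probe (ILMN_1746085) was detected on 0 arrays, at intensities of 53.1 to 71.1. IGFBP4, which binds IGFs near cells and is cleaved by the protease PAPPA, ran from 10.59 to 11.26 in controls and from 10.71 to 11.07 in maternal obese livers. Its difference of 0.026 (SE 0.14) had a 95% interval of -0.27 to 0.32, and only 25.5% of all tested probes had a smaller SD within conditions. IGFALS, the acid-labile subunit, had 1 probe, detected on 0 arrays at intensities of 61.0 to 85.1.

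**Figure D3:**
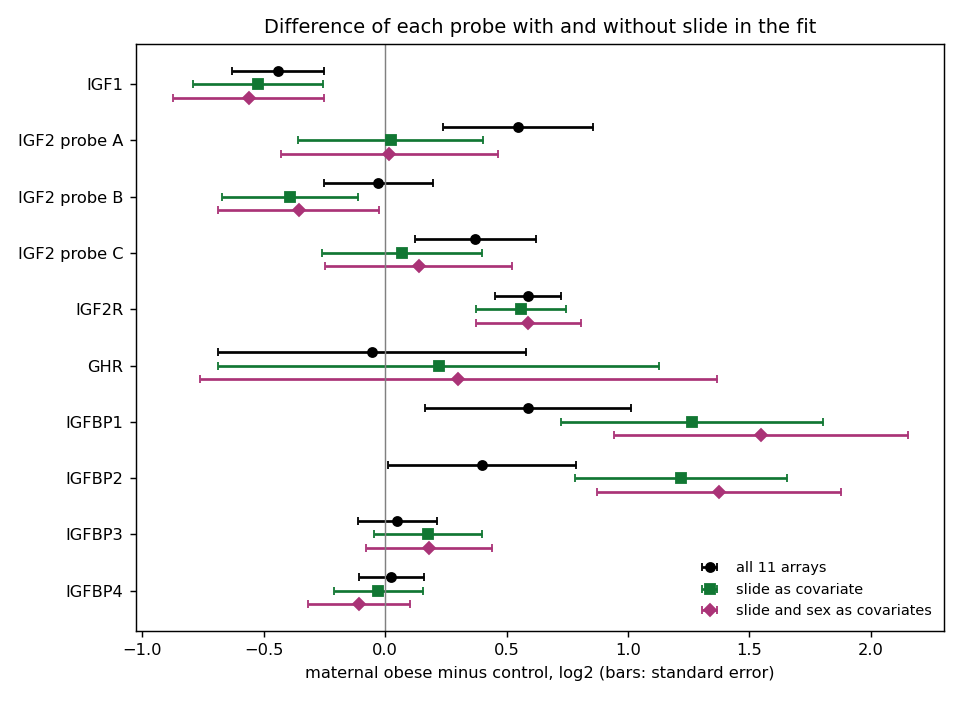
Maternal obese minus control difference of each tested probe on the log2 scale, with its limma standard error, over all 11 arrays, with slide as a covariate, and with slide and sex as covariates. IGF2R stays at 0.56 to 0.59 and IGF1 at -0.56 to -0.44, while IGF2 probe A goes from 0.55 to 0.017, IGFBP1 from 0.59 to 1.55 and IGFBP2 from 0.40 to 1.38.

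Fetal sex was considered next, as the labels give it for each fetus. Between females and males, with condition as a covariate, 0 of the 10 member probes had an unadjusted p under 0.05, against 11.1% of all tested probes, and limma called 0 members and 5 of all probes (0.0436%) after adjustment. Member differences ran from -0.29 for IGF2 probe A to 0.27 for IGFBP2. This fit mixes sex with slide, as all female controls lay on slide 1 and male controls on both slides. With slide and condition as covariates, 0 of the 10 members and 5.02% of all tested probes had an unadjusted limma p under 0.05. On slide 2 alone these were 1 of the 10 and 4.64%. The condition difference was then set side by side in the 2 sexes. For IGF2R it was 0.62 (SE 0.20, limma adjusted p = 0.212) in females and 0.56 (SE 0.22, limma adjusted p = 0.535) in males, and the interaction was 0.058 (SE 0.29, 95% interval -0.58 to 0.70).

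For IGF1 the 2 sexes gave different values. Male controls read 6.69, 6.25 and 6.41 and male maternal obese livers 5.37 and 5.62, a difference of -0.95 (SE 0.23, limma adjusted p = 0.522). Both male maternal obese readings lay near background. The detection p was 0.062 in MO4, where the probe was not detected, and 0.038 in MO5. Female controls read 5.94, 6.46 and 5.72 and female maternal obese livers 6.09, 6.09 and 5.85, a difference of -0.031 (SE 0.21, limma adjusted p = 0.963). The interaction, female minus male difference, was 0.92 (SE 0.31, 95% interval 0.24 to 1.61, unadjusted p = 0.0126 by limma), and the adjusted p = 0.589. The IGF1 interaction was 0.52 (SE 0.19) without background correction, and 0.76 to 1.13 when single arrays were left out. The fits without MO4 or MO5 rest on 1 male maternal obese liver. For IGFBP2 the interaction was -1.54 (SE 0.69, unadjusted p = 0.0459 by limma, adjusted p = 0.668), with -0.31 in females and 1.23 in males, and -0.89 (SE 0.40) without CON5, a male. With slide as a covariate it was -0.85 (SE 0.78). These were 2 of the 10 member probes with an unadjusted p under 0.05 for the interaction, against 7.36% of all tested probes. Adjusted, 0 members and 0 of all probes (0.00%) passed. All 3 female controls lay on slide 1 and all female maternal obese livers on slide 2, so in females condition and slide cannot be told apart. Within males, CON5 and CON6 shared the slide of MO4 and MO5, and IGF1 differed by -0.83 (SE 0.20, limma adjusted p = 0.815) among these 4.

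**Figure D4:**
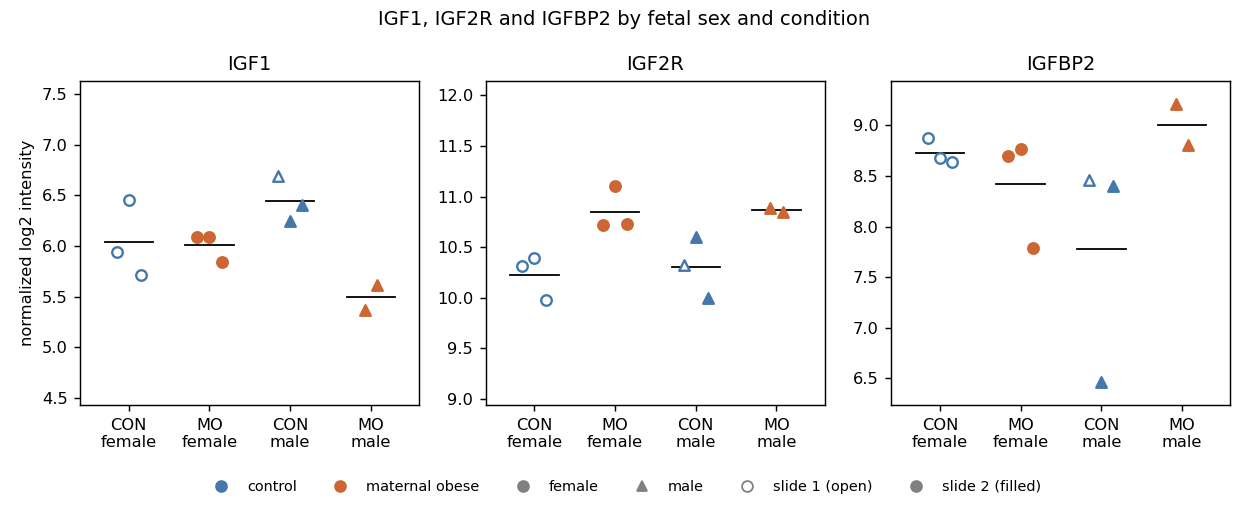
Normalized log2 intensity of IGF1, IGF2R and IGFBP2 by fetal sex and condition, with a line at each group mean (n = 3, 3, 3 and 2 from left to right). Male maternal obese livers read 5.37 (MO4, not detected) and 5.62 for IGF1. IGF2R is higher in the maternal obese livers of both sexes, and the low male control for IGFBP2 is CON5 at 6.47.

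Slide itself, with condition as a covariate, gave an adjusted p under 0.05 for 0 of the 10 member probes and for 1027 of all tested probes (8.95%). This fit compares the 4 controls of slide 1 with CON5 and CON6, and mixes slide with sex. Only IGFBP2 had an unadjusted p under 0.05 (26.9% of all tested probes did), at -1.23 on slide 2 (SE 0.45, limma adjusted p = 0.108), which was -0.26 without CON5. IGFBP1 stood at -1.01 (SE 0.56) and IGF2 probes A, B and C at 0.79 (SE 0.40), 0.54 (SE 0.29) and 0.46 (SE 0.34).

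The members did not vary together in a way that passed adjustment. Among the 28 pairs of the 8 measured members over the 7 arrays of slide 2, with the brightest probe for each gene, 0 had an adjusted p under 0.05, and the smallest p that 5040 arrangements allow is 0.000397. Pearson correlations ran from -0.662 (IGF1 with IGFBP3) to 0.757 (IGF2 with GHR). For IGF1 with IGFBP3 rho was only -0.214, and r was -0.781 without the 2 arrays farthest from the median of IGF1. GHR and IGFBP3 had the smallest p, with r = 0.664 (exact permutation p = 0.0147, adjusted p = 0.411) and rho = 0.821 (p = 0.0341). Without the 2 arrays farthest from the median of GHR, that r was 0.149. The arrays left were few and had a narrower range of GHR, so this does not show on which livers the relation rested. GHR and IGF2 gave r = 0.757 (exact permutation p = 0.0530, adjusted p = 0.742), rho = 0.821 (p = 0.0341) and r = 0.725 without the 2 farthest arrays. GHR was not detected in CON5, MO2 and MO5, all on slide 2, so its correlations include the order of readings at background.

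For each measured member, the genes of most similar pattern were taken as the 2 with the highest Pearson correlation over the 11 arrays after each slide's mean was subtracted, out of 8042 other genes. As the highest of so many, these values are descriptive. IGFBP1 was most like G6PC1, the catalytic subunit of glucose-6-phosphatase that releases glucose from hepatocytes (r = 0.933), and BTG1, an antiproliferative factor (r = 0.899). G6PC1 read 8.25, 8.36, 6.83, 8.17, 6.02 and 5.70 in CON1 to CON6 and 7.77, 6.35, 7.22, 6.49 and 7.78 in MO1 to MO5. CON5 and CON6 were lowest and MO1 and MO5 the highest of slide 2, the same livers as for IGFBP1, and on slide 2 alone r was 0.945. As G6PC1 was picked for following IGFBP1 over these same arrays, this likeness and the differences of G6PC1 add no independent evidence. G6PC1 is also on the insulin-repressed list. Its condition difference was -0.10 (SE 0.51) over all arrays and 1.26 (SE 0.46, limma adjusted p = 0.591) adjusted for slide. G6PC1 read lower on slide 2, at -2.05 (SE 0.48, limma adjusted p = 0.0232).

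**Figure D5:**
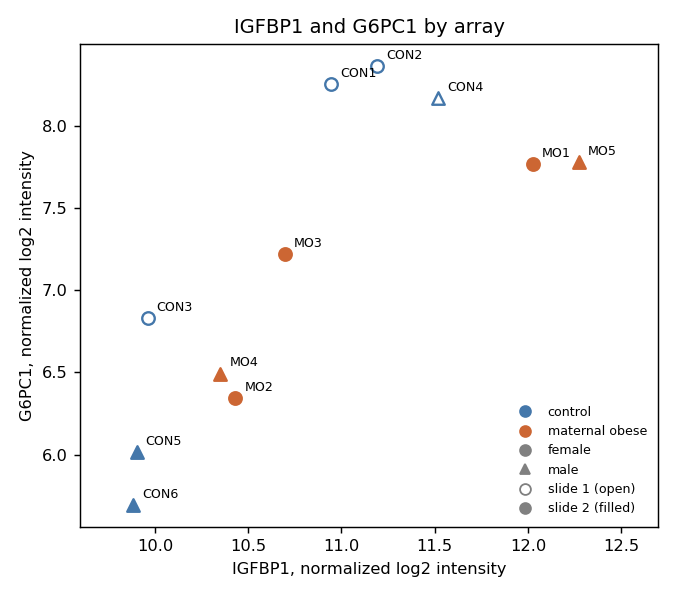
Normalized log2 intensity of IGFBP1 against that of G6PC1 in each of the 11 livers, with symbols for condition, sex and slide. On slide 2 CON5 and CON6 lie lowest on both axes and MO1 and MO5 highest, and the slide 1 controls lie higher on the G6PC1 axis at like IGFBP1.

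IGF2R was most like KLHL22, an adaptor of a cullin ubiquitin ligase (r = 0.941), and DAPP1, an adaptor protein of phosphoinositide signalling (r = 0.929). KLHL22 differed by 0.29 (SE 0.11, limma adjusted p = 0.361) between conditions, and DAPP1 by 0.026 (SE 0.17), with overlapping groups. Adjusted for slide they differed by 0.27 (SE 0.14) and 0.44 (SE 0.15), and DAPP1 read lower on slide 2, at -0.62 (SE 0.16, limma adjusted p = 0.0288). Both genes were picked for following IGF2R over these same arrays, so their differences add no independent evidence. IGF1 was most like NOSIP (r = 0.953) and SPINT2, an inhibitor of serine proteases (r = 0.928), and GHR like MRPL43, a mitochondrial ribosomal protein (r = 0.933), and LGALS7B, a galectin (r = 0.907). For IGF2 the most similar were C1orf74 (r = 0.922) and KIF17, a kinesin motor (r = 0.904). IGFBP2 had P2RX4, an ATP-gated channel (r = 0.920), and ASMTL (r = 0.900). IGFBP3 had PGLS, an enzyme of the pentose phosphate pathway (r = 0.944), and VARS1, the valyl-tRNA synthetase (r = 0.942), both highest in MO4 as IGFBP3 was. PGLS read 8.01 in MO4 and at most 7.025 on the other arrays, and these correlations without MO4 were not tested. IGFBP4 had TMEM52 (r = 0.910) and MAG (r = 0.897), which on slide 2 alone gave r = 0.872 and r = 0.677.

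Beyond the members, 5 lists of the surrounding pathway held 73 gene symbols, of which 44 were measured. Over these 44, limma called 0 after adjustment, 3 had an unadjusted p under 0.05 with a higher and 2 with a lower mean, and the median difference was 0.012, beside 12.8% of probes and 0.043 over all probes. In insulin and IGF receptor signalling, 15 of 25 genes were measured, 9 lay above 0 and the median was 0.025. MAPK3, the kinase ERK1, stood at 0.52 (SE 0.14, limma adjusted p = 0.287) from a control mean of 7.25 ± 0.20 (SD, n = 6) to 7.76 ± 0.22 (SD, n = 5). Adjusted for slide MAPK3 was at 0.34 (SE 0.18), and at 0.19 (SE 0.19) in the 4 males of slide 2. MTOR, the nutrient-sensing kinase, stood at -0.62 (SE 0.26, limma adjusted p = 0.371) but turned to 0.15 with slide as a covariate. It was detected in 4 control livers and 1 maternal obese liver. The 4 controls of slide 1 read 6.01 to 6.41, and the arrays of slide 2 read 5.00 to 5.60. MTOR thus passed the detection filter mainly through slide 1, and its slide difference of -1.16 (SE 0.18) largely restates detection. The slide-adjusted 0.15 compares arrays mostly at background.

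In growth hormone receptor signalling, 12 of 18 genes were measured, 5 lay above 0 and the median was -0.013. STAT3, a transcription factor activated by cytokine and growth hormone receptors, stood at -0.93 (SE 0.28, limma adjusted p = 0.309), from a control mean of 7.60 ± 0.62 (SD, n = 6) to 6.67 ± 0.41 (SD, n = 5). Adjusting STAT3 for slide left -0.25 (SE 0.28), and its slide 2 minus slide 1 difference was -1.03 (SE 0.29, limma adjusted p = 0.0491). SH2B1, an adaptor of JAK2, was at 0.31 (SE 0.17), at 0.17 without CON1 and at 0.17 adjusted for slide. STAT5B, which carries the growth hormone signal to the IGF1 gene, was at -0.010 (SE 0.14) and its feedback inhibitor SOCS2 at -0.10 (SE 0.22).

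The list of IGF2 RNA-binding proteins and mannose 6-phosphate sorting had 9 of 11 genes measured, 5 of them above 0, with a median of 0.014. IGF2BP1, which binds IGF2 RNA, was at 0.50 (SE 0.18, limma adjusted p = 0.358) or 0.094 adjusted for slide. GGA2, an adaptor that sorts mannose 6-phosphate receptors, was at 0.34 (SE 0.13, limma adjusted p = 0.362) or 0.30 adjusted for slide. M6PR, the other mannose 6-phosphate receptor, was at -0.090 (SE 0.11), where IGF2R was at 0.59. H19, the imprinted RNA next to IGF2, was at 0.014 (SE 0.11). Among other binding proteins and IGFBP proteases, 3 of 11 were measured. IGFBP7 was at 0.53 (SE 0.39), or 0.24 without CON1. IGFBP5 was at -0.36 (SE 0.45) and depended on single arrays. It was -0.80 without MO2, which read 12.18 and had the high stellate cell score, -0.11 without CON4, which read 12.02, -0.115 without MO1 and -0.20 without MO5. Adjusted for slide it was -0.13 (SE 0.64). Of the insulin-repressed hepatic genes, 6 of 9 symbols were measured, 3 above 0, with a median of -0.024. The 9 symbols include G6PC and G6PC1, which name the same gene. TRIB1 was at 0.27 (SE 0.19), at 0.12 without MO5 and at 0.063 (SE 0.25) adjusted for slide. PPARGC1A was at 0.26 (SE 0.33) and at 0.645 (SE 0.44) adjusted for slide, and ran from -0.004 without CON6 to 0.42 without MO2.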

How the data were processed

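Per the labels' protocols, liver RNA was isolated in TRI Reagent, cleaned on RNeasy columns and labelled by Illumina Total Prep amplification. Per the file headers, the deposited table gives an intensity and a detection p-value for each of 48803 probes and 11 arrays. The deposited series matrix holds log2 values, which equalled the log2 of those intensities to within 5e-09, so they were not normalized. GenomeStudio and Partek appear in the submitters' processing notes, with versions not given in the sources used here. All columns were matched to samples (0 unmatched). Arrays were grouped by the condition label, and replicate numbers only name arrays.

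Intensities were normalized with neqc of limma 3.58.1 in R 4.3.3 (normexp background from the detection p-values, offset 16, quantile normalization, log2). Testing covered the 11475 probes detected (p under 0.05) on 5 or more arrays, one by one with lmFit and eBayes, two-sided, with Benjamini-Hochberg adjustment over all of them and a threshold of 0.05. Gene names came from the platform annotation, under which 28098 probes had 1 symbol and 13 had several, while 20692 are unnamed here. For list genes the brightest tested probe stood for the gene. The p-values measure the spread between these 11 samples, and their number limits the precision. Each SE is the moderated one of limma, and each SD is taken over a group's arrays.

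Maternal obese and control arrays were compared without covariates, as the series design names none. Sex was tested with condition as a covariate, the interaction from 4 group means, and slide with condition as a covariate. Correlations were tested by exact permutation within slide 2. The rule for named genes took all members, the 2 genes of each pathway list with the smallest p, and the 2 genes most like each member. STAT5B, SOCS2, M6PR, H19, CD163, LYZ and the INS-IGF2 probes were added after their values were seen. The members and lists were chosen with earlier results of these data known. The alternatives were other normalization, background correction, filters, probe choice, array weights, slide and sex terms, and single arrays left out. The limma fit was tested on simulated data. Probe sequences were not used here.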

Additional observations from a re-analysis of the deposited data

Results flagged for a closer look

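Of 20 groups of readings checked (10 probes in 2 conditions), 2 held an array far from the others by a gap test, where chance gives about 1 in 20. CON5 read 6.47 for IGFBP2, and the nearest control 8.40. MO4 read 10.88 for IGFBP3, and the nearest maternal obese liver 10.24.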

How the results depend on the processing

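No paired analysis was possible because the replicate numbers only name arrays and pair no livers. The IGF2R difference stayed above 0 and the IGF1 difference below 0 under every alternative run, at 0.356 to 0.657 and -0.832 to -0.201, and no alternative brought a member past the adjusted threshold for condition. The members called for slide were 0 in the reported fit, 1 with the deposited log2 values as given and 0 to 1 when single arrays were left out. The first was IGF2 probe B, at 0.682, and the other IGFBP2, at -2.194 without CON6. Some differences changed sign, and the cause was not tested. Those of IGF2 probe B, GHR, IGFBP3 and IGFBP4 had been near 0, and those of MTOR (-0.624), IGF2BP1 (0.499), IGFBP5 (-0.361) and PPARGC1A (0.264) had not. Median scaling gave -0.176 for IGFBP3 and -0.192 for IGFBP4. Without background correction GHR was 0.054. With the deposited values GHR was 0.049, IGFBP3 -0.058 and IGFBP4 -0.076. Array weights gave 0.040 for IGF2 probe B, -0.062 for IGFBP3 and -0.011 for IGFBP4. Slide as a covariate, and slide 2 alone, gave 0.221 for GHR, -0.028 for IGFBP4 and 0.151 for MTOR, and slide as a random block 0.077 for GHR. Slide and sex together gave 0.302 for GHR, -0.107 for IGFBP4, 0.196 for MTOR, 0.046 for IGFBP5 and -0.038 for IGF2BP1. Males of slide 2 gave 0.552 for GHR, -0.015 for IGFBP4 and 0.357 for MTOR. Leaving out CON5 and MO2 together, chosen after seeing the data, gave 0.128 for IGF2 probe B. With single arrays left out, IGF2 probe B ran from -0.174 to 0.123, GHR from -0.513 to 0.286, IGFBP3 from -0.099 to 0.116, IGFBP4 from -0.036 to 0.099 and PPARGC1A from -0.004 to 0.424. The interaction within slide 2 was not run, as it held no female control. Signal near background limits IGF1, GHR and MTOR.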
